A study of Penicillium oxalicum with 18 samples.

Results

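Of 9176 gene models of the filamentous fungus Penicillium oxalicum, 51 (0.556%) were lower without vib1 in glucose, higher without vib1 in N-acetylglucosamine (GlcNAc), and close to wild type in bran plus cellulose. They were chosen by D, the log2 of the deletion strain's mean FPKM + 1 minus the log2 of the wild type's mean FPKM + 1, a scale that understates the differences of low genes. D had to be −1 or lower in glucose, 1 or higher in GlcNAc and between −1 and 1 in bran plus cellulose, and the mean had to reach 10 FPKM in at least 1 of the 6 groups. FPKM, the deposited unit, is a level scaled for library size and gene length. Of 7343 gene models at that level, 864 were lower in glucose by this measure, 78 of these were also higher in GlcNAc, and 51 met all conditions. The strain differences below therefore describe the choice and are no evidence for it.

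The vib1 deletion strain (Δvib1) was set against the wild-type strain 114-2 (WT). Both were grown in glucose at 2%, in GlcNAc at 2%, and in bran and microcrystalline cellulose at 1% each. Mycelium was pre-grown for 24 h at 30 °C on 2% glucose and was then kept for 24 h in its medium. Each strain had 3 libraries in each medium, 18 in all. The labels name 1 deletion strain without the number of transformants behind it. They do not call the replicates separate cultures, so a p-value here covers the spread of these libraries alone, and that spread may be technical.

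Vib1 is a transcription factor known from Neurospora crassa, where it acts in heterokaryon incompatibility, in the production of extracellular proteases and in growth on cellulose. Glucose and GlcNAc are both soluble sugars that feed glycolysis, and GlcNAc, the building block of chitin, also releases ammonium once it is deacetylated and deaminated. Bran and cellulose must first be cut by secreted enzymes. A filamentous fungus on glucose commonly represses genes for the use of other carbon sources. The choice asks for a strain difference on both soluble sugars and bounds, without removing, that on the polymers.

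All 51 members have IDs starting with PDE. The table pairs no ID with a gene name, and 0 of its IDs matched the 9964 genes of the reference list, so no function can be given to any member and vib1 itself could not be looked up as a check of the strain labels. Library totals lay between 915800 and 1119000 FPKM. On the sugars they did not overlap between strains, at 915800 to 945900 FPKM in Δvib1 and 1009000 to 1119000 FPKM in WT. Read depth is unknown, and no counting error or detection limit can be given. The median of all 8455 genes tested lay higher in Δvib1 by 0.18 log2 units in glucose and by 0.20 in GlcNAc. After rescaling the libraries by median ratios the rule again found 51 genes, of which 40 were among those described here. After rescaling to the same total it found 49, of which 43 were.

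The members had low levels in Δvib1 in glucose and high levels in Δvib1 in GlcNAc, with the other groups between. Their median was 9.73, 11.7 and 13.8 FPKM in the 3 Δvib1 libraries in glucose, against 43.7, 41.2 and 43.3 FPKM in the WT libraries there. In GlcNAc it was 90.7, 86.2 and 83.9 FPKM in the Δvib1 libraries, against 27.0, 26.6 and 26.3 FPKM in the WT libraries. In bran plus cellulose it was 31.1, 36.1 and 24.8 FPKM in the Δvib1 libraries, against 36.7, 40.0 and 37.1 FPKM in the WT libraries. The highest of the 6 group means was that of Δvib1 in GlcNAc for 41 members, and the lowest was that of Δvib1 in glucose for 39. The highest group mean of a member lay between 11.5 and 1507 FPKM, with a median of 91.0 FPKM.

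**Figure D1:**
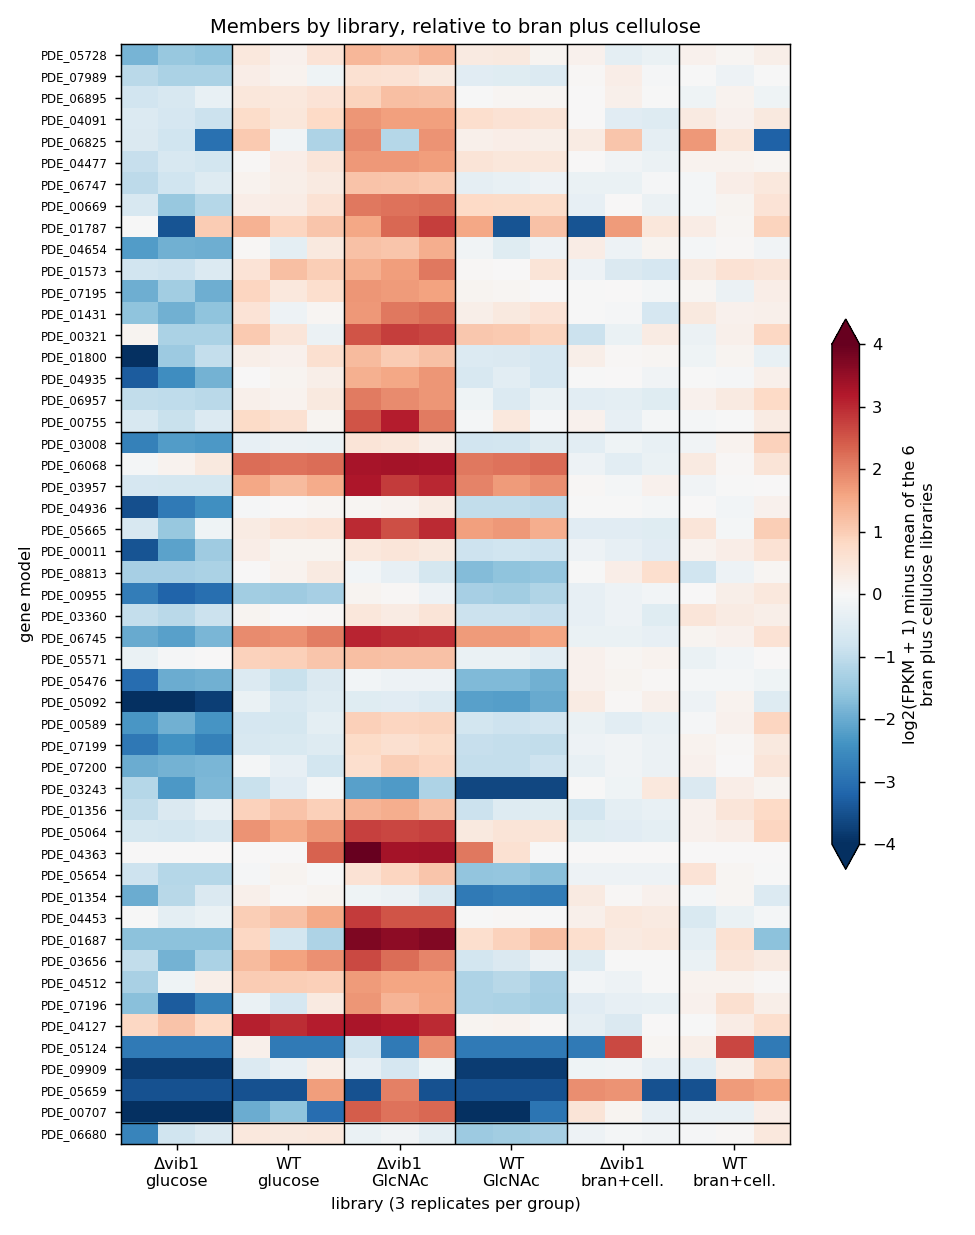
Each row is 1 of the 51 members and each column 1 of the 18 libraries, with the vib1 deletion (Δvib1) left of wild type (WT) in each medium. Colour gives log2(FPKM + 1) minus the gene's mean over its 6 bran plus cellulose libraries, and colours beyond 4 units are cut off. Lines separate the 18 members whose WT means stayed within 1 log2 unit, the 32 that varied in both strains, and the 1 that varied in WT alone. The Δvib1 libraries are mostly blue in glucose and red in GlcNAc.

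In glucose D lay between −3.93 and −1.01 with a median of −1.60, and for 20 members it was −2 or lower. All 3 Δvib1 libraries lay below all 3 WT libraries for 45 members, and of all genes tested 23.8% had libraries apart in that direction. The linear model across all genes (limma, adjusted p under 0.05) called 46 members lower, against 22.8% of all genes tested. PDE_06745, with the highest group mean of all members, stood at 46.8, 41.4 and 53.0 FPKM in Δvib1, against 716, 686 and 790 FPKM in WT (D = −3.93). PDE_05092 stood at 5.76, 9.68 and 17.5 FPKM in Δvib1, against 208, 162 and 175 FPKM in WT (D = −3.93). The strains were far from overlap for both genes, and the Δvib1 values of PDE_05092 were spread over a wider ratio than its WT values.

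In GlcNAc D lay between 1.00 and 6.02 with a median of 1.64, and for 17 members it was 2 or higher. All 3 Δvib1 libraries lay above all 3 WT libraries for 48 members, against 48.2% of all genes tested. The model called 46 members higher, against 44.8% of all genes tested. PDE_06745 stood at 1587, 1478 and 1456 FPKM in Δvib1, against 628, 625 and 576 FPKM in WT. The same gene was thus the most abundant member in Δvib1 on GlcNAc and, in glucose, among those with the lowest D. PDE_00707 stood at 109, 91.0 and 100.2 FPKM in Δvib1 in GlcNAc, against 0, 0 and 1.68 FPKM in WT, the highest D among the members. In glucose it was listed at 0 in all 3 Δvib1 libraries, against 4.15, 5.70 and 1.45 FPKM in WT, so that its part in the choice rests on low values there. For 8 members the difference reached 2 log2 units in both sugars. They include PDE_05659, whose strains overlapped in both sugars, and PDE_00707 and PDE_09909, each with at least 1 whole group at 0. The size of D was greater in glucose for 25 members and greater in GlcNAc for 26.

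**Figure D2:**
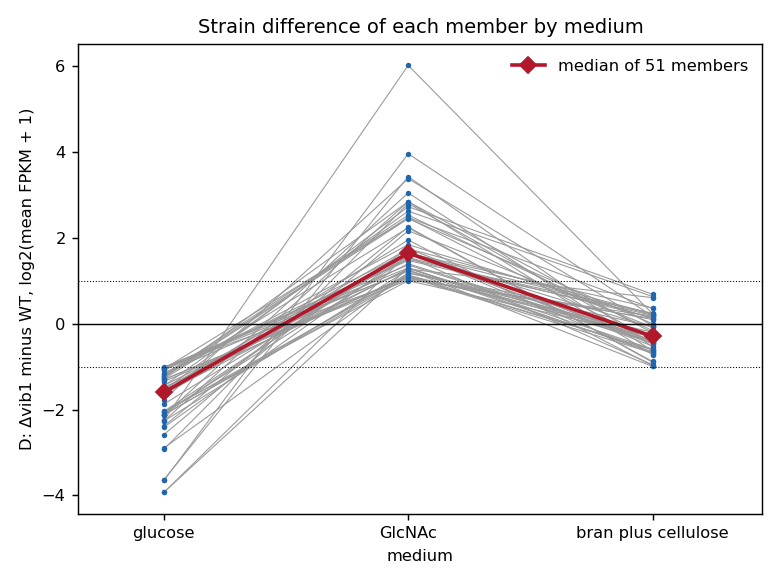
Each grey line joins the D of 1 member in the 3 media, in log2 units of mean FPKM + 1, deletion (Δvib1) minus wild type (WT). Diamonds are medians, and dotted lines mark the bounds of −1 and 1 that chose the members. The medians are −1.60 in glucose, 1.64 in GlcNAc and −0.29 in bran plus cellulose.

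In bran plus cellulose the members lay within the bounds by choice, and D had a median of −0.29. It was below 0 for 34 members, above 0 for 16 and exactly 0 for 1, and 32 members were within 0.5 log2 units. The Δvib1 libraries lay wholly below WT for 21 members (19.3% of all genes tested) and wholly above for 3 (20.0% of all genes tested). The model called 17 lower, against 13.5% of all genes tested, and 3 higher, against 13.2%. PDE_05665 had the lowest D, −0.995, at 5.95, 5.98 and 5.71 FPKM in Δvib1 and 12.3, 7.90 and 17.9 FPKM in WT. PDE_01356 was next, at 31.1, 39.6 and 42.1 FPKM in Δvib1 and 59.3, 74.6 and 91.1 FPKM in WT (D = −0.98). Both were lower without vib1 in all 3 libraries on polymers as well as in glucose. At the other end, PDE_04453 stood at 65.5, 76.7 and 74.0 FPKM in Δvib1 and 36.8, 47.0 and 54.6 FPKM in WT (D = 0.63). PDE_01687 had the highest D, 0.69, but its libraries overlapped, at 4.0, 2.97 and 3.15 FPKM in Δvib1 and 1.38, 3.78 and 0 FPKM in WT.

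The level on bran plus cellulose, where the choice kept D between −1 and 1, gives a base from which each sugar group can be read. The Δvib1 libraries lay wholly below WT there for 21 members and wholly above for 3, and the base averages over such differences. Relative to the mean of both strains there, the members' median difference was −1.35 log2 units for Δvib1 in glucose, against 0.23 for WT in glucose. It was 1.29 for Δvib1 in GlcNAc, against −0.49 for WT in GlcNAc. The corresponding medians over all genes tested were 0.06 and −0.15 in glucose and 0.15 and −0.05 in GlcNAc, Δvib1 before WT. In Δvib1, 32 members were at least 1 log2 unit under their polymer level in glucose and 31 were at least 1 unit over it in GlcNAc. Of all 8455 genes tested, 1127 and 989 were. In WT, 3 members were that far under it and 8 that far over it in glucose, against 510 and 462 of the 8455 genes. In WT in GlcNAc 15 members were under it and 5 over it, against 1064 and 643 of the 8455 genes.

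Within Δvib1, GlcNAc exceeded glucose by at least 1 log2 unit for 48 members (14.2% of all genes tested did so), with a median difference of 2.95. Within WT the same difference had a median of −0.71, and it was −1 or lower for 21 members (9.99% of all genes tested) and 1 or higher for 2 (7.97%). No member fell short by that much in Δvib1, where 14.9% of all genes tested did. From glucose to bran plus cellulose, 29 members were higher by at least 1 unit and 1 was lower in Δvib1 (12.8% and 12.3% of all genes tested), and 4 were higher and 8 lower in WT (7.19% and 5.74%). Set against GlcNAc, bran plus cellulose had 2 members higher and 34 lower in Δvib1 (13.7% and 13.1%), and 21 higher and 5 lower in WT (14.0% and 8.41%). These differences share their libraries with the strain differences of the choice, which makes GlcNAc minus glucose greater in Δvib1 than in WT by at least 2 log2 units on the scale of D, and are given without a test. GlcNAc exceeded glucose in Δvib1 while it fell short of glucose in WT for 40 members, and it exceeded glucose in both strains for 10. PDE_03243 was the remaining one, with a small negative difference in Δvib1. The WT means stayed within 1 log2 unit over the 3 media for 18 members, whose Δvib1 means spanned a median of 2.92 units. For a member with so flat a WT the choice itself makes GlcNAc exceed glucose in Δvib1 and makes that change the larger one. An example is PDE_05728, which in Δvib1 stood at 12.8, 16.6 and 15.5 FPKM in glucose, 124, 113 and 129 FPKM in GlcNAc and 55.5, 36.8 and 40.6 FPKM in bran plus cellulose. In WT all 9 of its values lay between 51.8 and 72.3 FPKM. PDE_05728 was named as the member nearest the GlcNAc bound, with D = 1.00.

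For 32 members the means of both strains varied by at least 1 log2 unit over the media. PDE_07199, the member with the next highest group mean after PDE_06745, stood at 63.8, 88.0 and 72.2 FPKM in Δvib1 in glucose, against 299, 305 and 328 FPKM in WT. In GlcNAc it stood at 797, 734 and 806 FPKM in Δvib1, against 247, 240 and 239 FPKM in WT. In bran plus cellulose it stood at 410, 426 and 398 FPKM in Δvib1, against 525, 486 and 618 FPKM in WT. WT thus had most of this transcript on polymers and Δvib1 most on GlcNAc. PDE_06680 was the 1 member whose Δvib1 means stayed within 1 log2 unit (a range of 0.94), while its WT means spanned 1.80 units. It had 263, 285 and 243 FPKM in GlcNAc and 49.9, 182 and 216 FPKM in glucose without vib1, with the glucose libraries far apart. In WT it averaged 120.0 ± 4.37 FPKM in GlcNAc and 421 ± 5.31 FPKM in glucose (SD, n = 3 each).

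**Figure D3:**
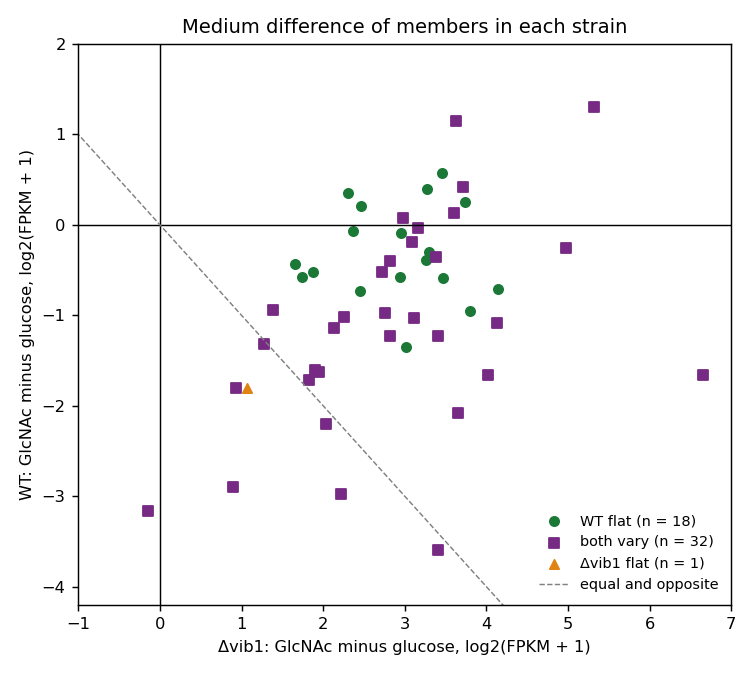
Each point is 1 of the 51 members, with its GlcNAc minus glucose difference in the deletion strain (Δvib1) on the horizontal axis and in wild type (WT) on the vertical axis, both in log2(FPKM + 1). Most points lie right of 0 and below 0, and 43 lie nearer the horizontal line at 0 than the vertical one, so that the change was larger in Δvib1. These include the 18 with a flat WT, for which the choice fixes it. The dashed line marks equal and opposite changes.

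The medium difference averaged over both strains takes in the levels by which the members were chosen. Its calls and p-values are therefore no evidence apart from the choice. GlcNAc minus glucose had a member median of 2.95 in Δvib1 and −0.71 in WT. For bran plus cellulose minus glucose these medians were 1.40 and −0.16. The minimum of 10 FPKM bears on the average as well. That minimum was met only by Δvib1 in GlcNAc for 7 members (PDE_00321, PDE_01431, PDE_01687, PDE_03957, PDE_04363, PDE_04477 and PDE_06957) and only in bran plus cellulose for PDE_03243 and PDE_05124. Such members had to be high there, so the counts over all 51 describe them and support nothing. For the same reason the 38 that met the minimum in all 3 media are also counted apart, a restriction chosen after the values were seen. No p-value is given for a single member. A medium counted if the mean of either strain reached 10 FPKM there. PDE_06068, for example, averaged 6.66 FPKM in Δvib1 and 10.7 FPKM in WT on polymers. For a member that moves in opposite directions in the strains, the sign of the average tells which strain's change was larger. GlcNAc minus glucose, so averaged, rose in 37 members and fell in 4 (limma, adjusted p under 0.05), and 10 did not pass the test. Of all genes tested, 43.4% rose and 27.4% fell. Among the 38, it rose in 28 and fell in 2, with a median of 1.09 log2 units. The median was 1.15 log2 units over all 51 and 0.13 over all genes tested, and 28 members rose by at least 1 unit (8.27% of all genes tested) while 1 fell by as much (10.6%).

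PDE_01687 and PDE_00707 had the largest averaged rise of the members that passed. PDE_01687 was listed at 0 in all 3 Δvib1 libraries in glucose and stood at 40.5, 36.0 and 40.0 FPKM in Δvib1 in GlcNAc, the only group in which it met the minimum. In WT it stood at 3.95, 4.97 and 6.15 FPKM in GlcNAc and at 4.59, 0.89 and 0.34 FPKM in glucose. PDE_00707 met the minimum in GlcNAc and on polymers but not in glucose. No fold is given for either gene, because an exact 0 in these files can be a failed estimate. PDE_06745 rose by 2.36 ± 0.08 log2 units (SE) and PDE_07199 by 1.51 ± 0.07. Both were named for their highest group mean, that of Δvib1 in GlcNAc, and this choice favours such a rise. In PDE_06745 the averaged rise came from Δvib1, since its WT levels were 628, 625 and 576 FPKM in GlcNAc and 716, 686 and 790 FPKM in glucose. The same held for PDE_07199, whose difference was 3.38 log2 units in Δvib1 and −0.36 in WT.

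In the opposite direction, PDE_03243 and PDE_01354 had the largest averaged fall. PDE_01354 stood at 271, 256 and 204 FPKM in GlcNAc and at 76.5, 139 and 204 FPKM in glucose in Δvib1. In WT it stood at 41.5, 44.8 and 43.0 FPKM in GlcNAc and at 345, 311 and 325 FPKM in glucose. The averaged difference was −0.9997 ± 0.18 log2 units (SE), and WT's change was the larger one. PDE_03243 was a low gene, listed at 0 in all 3 WT libraries in GlcNAc, with 5.71, 8.12 and 10.8 FPKM in WT in glucose. In Δvib1 it stood at 1.80, 1.61 and 4.32 FPKM in GlcNAc and at 4.73, 1.54 and 2.62 FPKM in glucose, and within Δvib1 the values of these media overlapped.

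Bran plus cellulose minus glucose, averaged over the strains, rose in 28 members and fell in 6, against 34.1% and 26.6% of all genes tested, with a median of 0.55 over the members and 0.05 over all genes tested. Among the 38 members at the minimum in all 3 media, 21 rose and 4 fell. By at least 1 unit, 16 of the 51 rose and 2 fell (9.21% and 6.59% of all genes tested). PDE_05092 rose by 2.50 ± 0.18 log2 units (SE). This averaged rise came from Δvib1, where the difference was 4.71, against 0.29 ± 0.26 in WT (SE). The gene was named for its low D in glucose. With D bounded on polymers, that choice makes its rise from glucose greater in Δvib1 than in WT. PDE_05092 stood at 313, 263 and 289 FPKM in Δvib1 in bran plus cellulose, and in WT at 221, 275 and 176 FPKM there. With 180.0, 184 and 171 FPKM in Δvib1 in GlcNAc and 55.1, 53.5 and 61.0 FPKM in WT in GlcNAc, this gene had its highest mean on polymers in both strains. In WT the polymer values overlapped those in glucose, 208, 162 and 175 FPKM. PDE_00707 rose as well, with 28.2, 21.2 and 15.4 FPKM in Δvib1 and 15.6, 15.8 and 23.4 FPKM in WT on polymers. PDE_06068 fell by 1.18 (difference −1.18 ± 0.08, SE). PDE_04127, which met the minimum in glucose and GlcNAc only, fell by 1.99 (difference −1.99 ± 0.12, SE). PDE_04127 had only 3.41, 2.84 and 4.73 FPKM in Δvib1 and 4.64, 5.95 and 8.10 FPKM in WT on polymers. In glucose it had 9.04, 11.7 and 8.95 FPKM in Δvib1 and 48.6, 43.3 and 48.8 FPKM in WT. Its WT values in GlcNAc, 5.14, 5.29 and 4.86 FPKM, lay within the range of its WT polymer values, whereas Δvib1 had 53.7, 50.3 and 44.0 FPKM there.

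Bran plus cellulose minus GlcNAc, which is the difference between the preceding averages and no separate evidence, rose in 12 members and fell in 26 (27.9% and 37.2% of all genes tested). Its median was −0.43 over the members and −0.07 over all genes tested. Among the 38 members at the minimum in all 3 media, 9 rose and 17 fell. By at least 1 unit, 5 of the 51 rose and 15 fell (9.40% and 4.99% of all genes tested). PDE_06068 fell by 2.75 (difference −2.75 ± 0.08, SE). It stood at 7.19, 5.98 and 6.80 FPKM in Δvib1 and 11.0, 8.65 and 12.3 FPKM in WT on polymers, against 90.7, 94.0 and 91.8 FPKM and 39.6, 41.5 and 44.4 FPKM in the same strains in GlcNAc. In glucose its WT values of 43.7, 41.2 and 43.3 FPKM lay within the range of those in GlcNAc, and Δvib1 was down at 7.92, 9.45 and 11.2 FPKM. PDE_03957, kept only for its level in Δvib1 in GlcNAc, fell by 2.43 (difference −2.43 ± 0.09, SE), with polymer values under 1 FPKM in both strains. Its values in GlcNAc were 14.4, 10.5 and 12.1 FPKM in Δvib1 and 5.46, 4.39 and 4.93 FPKM in WT. Of the members that passed, PDE_03243 and PDE_09909 had the largest rise, and both were listed at 0 in WT in GlcNAc. PDE_03243 met the minimum only on polymers, and PDE_09909 only there and in glucose.

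**Figure D4:**
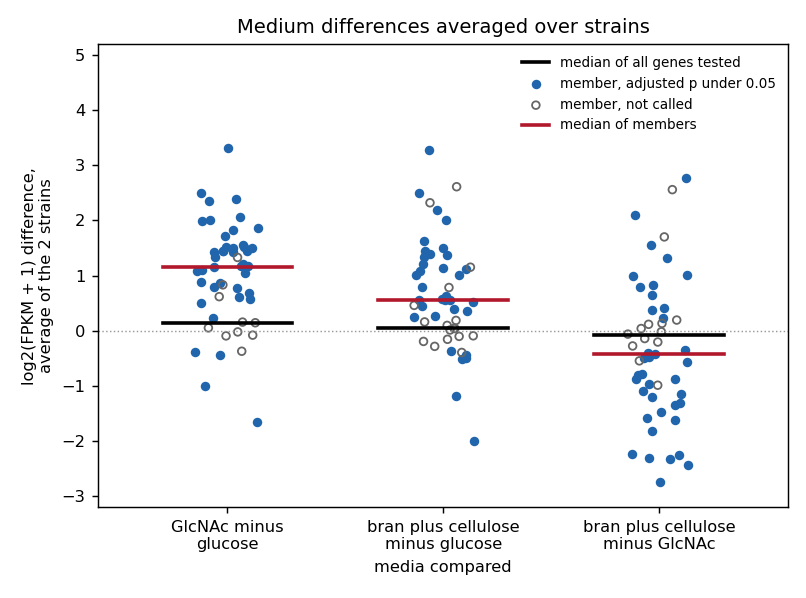
Points are the 51 members and the vertical axis is the log2(FPKM + 1) difference between media, averaged over the 2 strains. Filled points passed the limma test, open points did not, red bars are the members' medians (1.15, 0.55 and −0.43), and black bars are the medians of all 8455 genes tested (0.13, 0.05 and −0.07). The members' medians lie farther from 0 than those of all genes in each comparison. These averages take in the levels by which the members were chosen.

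**Figure D5:**
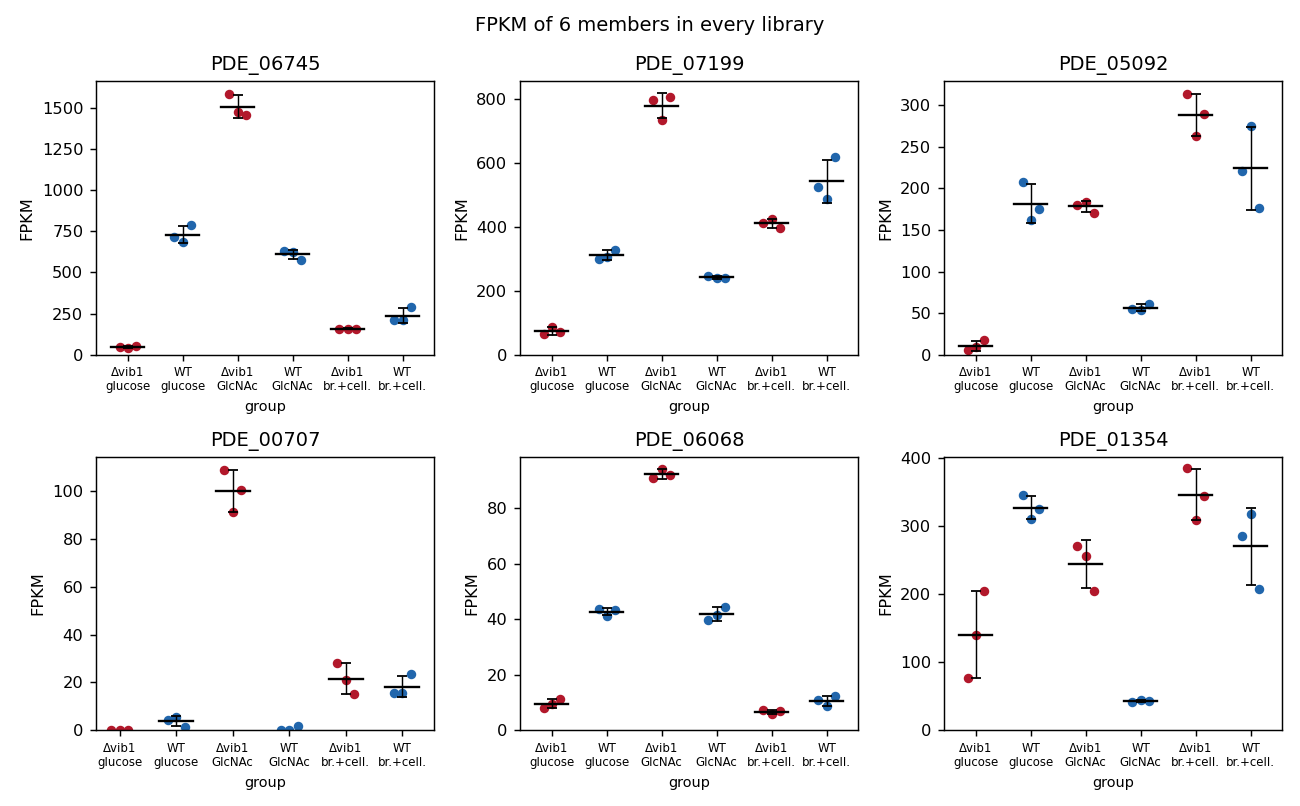
FPKM of 6 members in every library, with the vib1 deletion (Δvib1, red) left of wild type (WT, blue) in glucose, GlcNAc and bran plus cellulose. Lines and error bars give the mean and SD of 3 replicates and are left out for groups with a value of 0. PDE_06745, PDE_07199, PDE_00707 and PDE_06068 peak in Δvib1 in GlcNAc, and PDE_05092 and PDE_01354 are highest on polymers in Δvib1.

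Some members had uneven replicates. In Δvib1 in glucose, 43 members had no ties among replicates. Replicates 1, 2 and 3 were the lowest for 20, 16 and 7 of them (46.5%, 37.2% and 16.3%). Over all genes tested without ties the shares were 26.1%, 21.1% and 52.8%. Without replicate 1 of that group the rule found 53 genes, 46 of them among the 51. The median SD of log2(FPKM + 1) over replicates was 0.22 for the members and 0.15 for all genes tested in Δvib1 in glucose, and 0.18 and 0.11 in WT in glucose. All 51 passed the filter of at least 1 FPKM in 3 libraries, 61 of their 918 values were 0, and these zeros lay in 12 members, of which 7 had a whole group at 0. PDE_05659 was listed at 0 in 12 of 18 libraries. Its other values were between 32.1 and 43.6 FPKM in 1 WT library in glucose, 1 Δvib1 library in GlcNAc, and 2 Δvib1 and 2 WT libraries in bran plus cellulose. PDE_05124 stood at 3.16, 0 and 25.01 FPKM in Δvib1 in GlcNAc and at 7.25, 0 and 0 FPKM in WT in glucose, and was listed at 0 in Δvib1 in glucose and in WT in GlcNAc. PDE_04363 stood at 0, 0 and 4.12 FPKM in WT in glucose and was listed at 0 in Δvib1 there. The libraries of the strains overlapped in glucose for these 3 genes and for PDE_00321, PDE_01787 and PDE_06825. PDE_09909, by contrast, was even: it was listed at 0 in all 3 Δvib1 libraries in glucose and all 3 WT libraries in GlcNAc, with 8.67, 10.1 and 15.5 FPKM in WT in glucose and 10.04, 7.81 and 11.4 FPKM in Δvib1 in GlcNAc. When each library was left out in turn, 30 members met the rule in all 18 cases and the other 21 in at least 13.

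Some members carry neighbouring numbers. For 6 of 51 (11.8%) the next or preceding ID number was also a member, against 79 of 8376 other PDE genes tested (0.943%) that stood next to a member. Within 5 numbers the shares were 12 members (23.5%) and 373 others (4.45%). Whether neighbouring numbers lie side by side in the genome was not tested, and reads shared by overlapping genes cannot be told apart. These stretches were chosen after their values were seen. PDE_07195, PDE_07196, PDE_07199 and PDE_07200 were all members. PDE_07195 had 5.94, 9.23 and 5.93 FPKM in Δvib1 in glucose, against 47.9, 35.1 and 42.2 FPKM in WT, and 91.3, 86.2 and 81.6 FPKM in Δvib1 in GlcNAc, against 27.98, 27.2 and 26.4 FPKM in WT. The D of the 4 genes lay between −2.41 and −1.53 in glucose and between 1.63 and 2.84 in GlcNAc, while their levels differed, with Δvib1 means of 86.4, 80.2, 779 and 165 FPKM in GlcNAc in the order of their numbers.

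PDE_04935 and PDE_04936 formed another pair, with D of −2.58 and −2.89 in glucose and 2.16 and 1.18 in GlcNAc. On polymers PDE_04935 averaged 51.1 ± 3.05 FPKM in Δvib1 and 54.1 ± 5.38 FPKM in WT (SD, n = 3 each), and PDE_04936 averaged 218 ± 5.06 and 228 ± 21.1 FPKM in the same strains. The neighbours of other members did not always share the pattern. PDE_06746, between the members PDE_06745 and PDE_06747, had D of −0.50 in glucose and −3.26 in GlcNAc. PDE_05655, next to the member PDE_05654, was higher without vib1 in both sugars (D of 1.44 in glucose and 3.59 in GlcNAc), with a mean of 6980 FPKM in Δvib1 in GlcNAc and 578 FPKM in WT.

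The bounds cut through a continuous range, and with a pseudocount of 5 in place of 1 the rule found 31 members, all among the 51. Just inside the glucose bound lay PDE_06747 (D = −1.01) and just outside PDE_02545 (−0.99). For GlcNAc these were PDE_05728 (1.00) and PDE_08004 (0.97), for bran plus cellulose PDE_05665 (−0.995) and PDE_08139 (−1.04), and for the highest group mean PDE_04363 (11.5 FPKM) and PDE_09853 (7.77 FPKM). The opposite pattern, higher without vib1 in glucose and lower in GlcNAc with the same bounds, held for 70 genes. For those 70 the averaged GlcNAc minus glucose difference had a median of −1.52. Their GlcNAc minus glucose medians were −3.28 in Δvib1 and 0.18 in WT, beside 2.95 and −0.71 for the 51 members. In both sets, then, the median change between the sugars was larger in Δvib1 than in WT. Each choice makes that change differ between the strains by at least 2 log2 units on the scale of D. For the 247 genes tested that were lower without vib1 in glucose only, the medians were 1.64 in Δvib1 and 0.15 in WT. For the 1007 that were higher without vib1 in GlcNAc only, they were 0.59 and −0.41. A larger change in Δvib1 is thus not particular to the members. No test was made of a difference between the sets.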

How the data were processed

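Tag libraries (oligo(dT) selection, NlaIII and MmeI cuts, Illumina sequencing, per the labels' protocols) were made from 18 samples. The authors deposited FPKM per gene model, per the file headers. The aligner, quantifier, genome build and gene lengths behind them are not named in the sources used here. Tags come from few sites of a transcript, so scaling by length bears on comparisons between genes and cancels between libraries. Groups and replicate numbers came from the sample titles. Values were analysed as log2(FPKM + 1), which understates differences of low genes. A filter of 1 FPKM or more in 3 or more libraries kept 8455 gene models and left out 721. limma 3.58.1 in R 4.3.3 fitted 6 group means to all 18 libraries (trended, robust eBayes, 12 residual df, two-sided p-values adjusted by Benjamini-Hochberg over all genes kept); the code was tested on simulated data. Plots used matplotlib 3.10.9. Depth is unknown.

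The members, gene lists and tests were chosen with earlier results of these data known. Keyword lists of gene functions were void, since 0 IDs matched the reference list (assembly ASM172317v3). Named members are those with the most extreme D in each medium, the highest group means, the largest called averaged differences, the largest medium differences within a strain, and those nearest the bounds. No p-value is printed for a single member. Others are examples chosen after their values were seen: PDE_04935, PDE_04936, PDE_07195, PDE_07196, PDE_07200, PDE_06680, PDE_05654, PDE_01431, PDE_04477, PDE_06957, PDE_05655, PDE_06746, PDE_00321, PDE_01787 and PDE_06825. Alternatives were other pseudocounts, filters, scalings, limma settings, a replicate block and leaving out each library.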

Additional observations from a re-analysis of the deposited data

How the results depend on the processing

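The number of members was 31 with a pseudocount of 5, 21 with a bound of 1.5 log2 units in both sugars and 32 with bran plus cellulose within 0.5, all subsets of the 51, and 46 to 56 when single libraries were left out. Requiring at least 1 log2 unit of the called averaged differences left 28 members higher and 1 lower in GlcNAc minus glucose (8.27% and 10.6% of all genes tested). In bran plus cellulose minus glucose it left 18, with 16 higher and 2 lower (9.21% and 6.59%). In bran plus cellulose minus GlcNAc it left 20, with 5 higher and 15 lower (9.40% and 4.99%). The members' median of GlcNAc minus glucose was 1.22 with a pseudocount of 0.1, 0.93 with a pseudocount of 5, 1.05 after median-ratio rescaling and 1.09 after rescaling to the same total, and 1.08 to 1.20 without single libraries. That of bran plus cellulose minus glucose was 0.40 with a pseudocount of 5, and 0.47 to 0.57 without single libraries. The 38 members that met 10 FPKM in all 3 media were chosen after seeing the data. Of these, 28 were higher and 2 lower in GlcNAc minus glucose (median 1.09), against 43.4% and 27.4% of all genes tested. In bran plus cellulose minus GlcNAc 9 were higher and 17 lower (median −0.31), against 27.9% and 37.2%. With no minimum, also added after seeing the data, 38 rose and 4 fell in GlcNAc minus glucose. Over the 29 refits, 39 of the 41 calls for GlcNAc minus glucose, 28 of 34 for bran plus cellulose minus glucose and 36 of 38 for bran plus cellulose minus GlcNAc held in every refit. A sign changed in 2 called members, both in bran plus cellulose minus glucose: PDE_03957 was 0.23 with a pseudocount of 0.1 in place of −0.37, and PDE_04477 was −0.05 after quantile normalization in place of 0.24; the cause was not tested. PDE_00707 lost its call in bran plus cellulose minus GlcNAc with a pseudocount of 5 and without wild-type GlcNAc replicate 1 or 2. The replicate number as a block left the counts at 41, 34 and 38 and the medians at 1.15, 0.55 and −0.43. Deviations of same-numbered libraries correlated between −0.107 and 0.181 (median 0.00627, 45 pairs). Those of libraries with different numbers correlated between −0.209 and 0.138 (median −0.0056, 90 pairs). Of 18 libraries, 8 correlated best with one of their own number. As these ranges largely overlap, the numbers were not taken to pair samples. Unknown depth limits what can be said of members near 0.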
